A study of Mus musculus with 5 samples.

Results

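The secondary and tertiary granule genes examined here were Ltf, Camp, Ngp, Lcn2, Cd177, Chil3 and Fcnb, taken by name from a table of unique molecular identifier (UMI) counts, where all were found, 7 of the 15287 genes measured. Each UMI tags a single captured transcript at its 3' end, so a count is a number of molecules and does not grow with transcript length. The table held 12893 single bone marrow cells in 5 libraries. All came from mice aged 20 weeks of the strain Fgd5CreERT2/+Rosa26Tomato/+, given no treatment, in which ZsGreen and CreERT2 are expressed from 1 allele of Fgd5, a gene of hematopoietic stem cells (HSCs). The 3 Lin-kit+ libraries held CD45.2+ cells negative for lineage markers and positive for c-kit, the Fgd5+ library held Lin-kit+ cells that were also ZsGreen positive, and the HSC-Fgd5+ library held ZsGreen-positive cells with the added Sca-1+CD150+CD48- phenotype. Because the barcodes do not name a population, libraries were assigned by the cell numbers of the study, 11581 for the Lin-kit+ libraries (called a, b and c), 793 for Fgd5+ and 519 for HSC-Fgd5+, and every contrast between populations rests on that assignment. The labels of the reporter-positive samples disagree on which had the HSC gate, and the number of mice is not given, so that n counts libraries and p-values measure the spread between libraries, which may be technical.

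Neutrophils fill their granules in waves as they mature in the bone marrow. Primary granules, with myeloperoxidase and the serine proteases, are made at the promyelocyte stage, secondary (specific) granules with lactoferrin and cathelicidin at the myelocyte and metamyelocyte stages, and tertiary (gelatinase) granules after these. The content of a granule is thought to follow from which granule genes are transcribed while it forms, and the loss of the transcription factor C/EBP epsilon leaves neutrophils without secondary granules.

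The 7 genes lie on 4 chromosomes (GENCODE M21, GRCm38), and all are protein coding. Camp (chr9:109847379-109849617, minus strand), Ngp (chr9:110419747-110423012, plus strand) and Ltf (chr9:111019271-111042767, plus strand) lie within 1.20 Mb of chromosome 9. Fcnb (chr2:28076378-28084885) and Lcn2 (chr2:32384633-32388252) are on the minus strand of chromosome 2, separated by 4300 kb. Chil3 (chr3:106147554-106167564) and Cd177 (chr7:24743983-24760311) are on the minus strand of chromosomes 3 and 7. The sequences before the transcription start of 4 members, at different places in their order of rise along the neutrophil series, were taken from RefSeq (GRCm38.p6), as far as neither annotation places a transcript there. They are shown so that the members that rose first and last can be set beside each other, with the matches to the searched motifs in capitals. The window of Fcnb is chr2:28084886-28085128 (minus strand), that of Ngp chr9:110419558-110419746 (plus), that of Chil3 chr3:106167565-106167814 (minus) and that of Ltf chr9:111019042-111019270 (plus).
Fcnb: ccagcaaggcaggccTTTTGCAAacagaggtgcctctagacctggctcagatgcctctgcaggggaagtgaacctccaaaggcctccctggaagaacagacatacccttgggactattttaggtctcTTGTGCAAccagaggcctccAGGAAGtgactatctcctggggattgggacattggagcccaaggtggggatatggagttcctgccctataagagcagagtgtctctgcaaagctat
Ngp: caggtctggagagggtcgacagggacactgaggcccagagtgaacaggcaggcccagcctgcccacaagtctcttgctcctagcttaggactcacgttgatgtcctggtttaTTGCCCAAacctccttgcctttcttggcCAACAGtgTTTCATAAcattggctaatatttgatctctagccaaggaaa
Chil3: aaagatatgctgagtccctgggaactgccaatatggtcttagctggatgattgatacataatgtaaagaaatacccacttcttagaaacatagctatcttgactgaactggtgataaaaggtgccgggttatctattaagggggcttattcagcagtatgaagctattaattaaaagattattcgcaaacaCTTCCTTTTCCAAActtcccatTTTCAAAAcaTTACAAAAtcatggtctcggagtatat
Ltf: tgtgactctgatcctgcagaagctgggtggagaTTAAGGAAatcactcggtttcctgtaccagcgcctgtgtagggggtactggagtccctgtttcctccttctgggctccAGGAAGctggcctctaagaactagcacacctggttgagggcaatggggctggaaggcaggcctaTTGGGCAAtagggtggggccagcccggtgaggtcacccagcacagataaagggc
Within 250 bases before the RefSeq start, the C/EBP motif TTNNGNAA was present on either strand in 6 of the 7 members, Camp being the exception, and in 36.8% of 32851 promoters of the same length. Its stricter form TTNNGCAA, which is a subset of these matches, was present in 4 members (Ltf, Ngp, Lcn2 and Fcnb) and in 9.56% of all promoters. Another stricter match of Ngp lies in the part not shown, where GENCODE already places the gene. The whole window of Lcn2, chr2:32387740-32387989, likewise lies within its GENCODE gene. The matches counted for Lcn2 thus lie before the RefSeq start only. The ETS or PU.1 motif AGGAAG was found in 5 members and 29.5% of promoters, the MYB motif CAACNG in 2 members and 29.3%, the TATA box TATAAA in 1 member (Cd177) and 12.4%, and the RUNX motif TGTGGT in 0 members and 14%. Such matches describe the letters of the window and were not related to binding.

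Library totals ran from 2166655 UMIs (HSC-Fgd5+) to 36080242 UMIs (Lin-kit+ library c), with 1339, 4095 and 6147 cells in libraries a, b and c. The median cell of a library held between 3721 and 6567 UMIs. Of 12830 distinct barcodes, 62 occurred in more than 1 library, and 159 cells (1.23%) were called doublets. The cells were grouped into 20 clusters without using the 7 members, and clusters were named from lists of marker genes. Neutrophil-like cells (3856 of the Lin-kit+ cells) made up 33.0% ± 0.745 (SD, n = 3 libraries) of a Lin-kit+ library and carried 8 to 15 of their listed markers per cluster.

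The granule genes were among the abundant transcripts of Lin-kit+ cells. Camp, the precursor of the cathelicidin antimicrobial peptide, reached 8400, 9802 and 10297 CPM (UMIs of a gene scaled to 1000000 UMIs of the library) in libraries a, b and c. Ngp, a neutrophil granule protein related to the cathelicidins and cystatins, reached 6352, 7391 and 8217 CPM. Chil3, a chitinase-like lectin also called Ym1, was at 859, 1063 and 1204 CPM. Camp and Ngp thus stood several-fold above the remaining members in each library. Lcn2, a lipocalin that binds bacterial siderophores, was at 598, 701 and 728 CPM. Fcnb, ficolin B, a lectin that starts the complement cascade, was at 603, 655 and 727 CPM. Ltf, the iron-binding lactoferrin, was at 262, 353 and 365 CPM, and Cd177, a surface glycoprotein of neutrophils, at 35.2, 46.0 and 46.6 CPM. All 7 genes were lowest in library a and highest in library c, while the order Camp, Ngp, Chil3 at the top and Ltf, Cd177 at the bottom held in each library. Lcn2 and Fcnb, which exchanged places between libraries, did not differ beyond their spread (676 ± 68.3 and 662 ± 62.5 CPM, SD, n = 3).

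The transcripts were concentrated in few cells. In library c, 133 cells (2.16%) held as many Ltf UMIs as all the others together, against 370 cells (6.02%) for Camp and 477 (7.76%) for Fcnb. Libraries a and b gave the same order of these genes, with 1.72% and 2.12% of cells for Ltf and 6.57% and 7.33% for Fcnb.

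The reporter-positive libraries addressed whether granule genes are expressed in cells that carry the Fgd5 reporter. In the HSC-Fgd5+ library, Camp had 2 UMIs, Ltf, Ngp and Chil3 had 1 UMI each, and Lcn2, Cd177 and Fcnb had 0. A count of 0 there allows up to 1.38 CPM (3 counts of the library total), and no cell held more than 1 member UMI. Against the mean of the Lin-kit+ libraries, Camp was 10292-fold lower, with a 95% counting interval of 2849 to 84982, which covers counting error only. Lcn2, Cd177 and Fcnb were at least 488-fold, 30.8-fold and 478-fold lower.

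The Fgd5+ library appeared to hold more, with 629 UMIs of Camp, 800 of Ngp, 146 of Ltf, 101 of Lcn2, 69 of Chil3, 16 of Fcnb and 5 of Cd177. Almost all of these lay in a single cell, which held 622 of the Camp, 790 of the Ngp, 143 of the Ltf and 14 of the Fcnb UMIs, and all of those of Lcn2, Chil3 and Cd177. That cell had 9373 UMIs over 1644 genes, was not called a doublet and had a barcode found in no other library. The members made up 18.6% of its UMIs, it had 2178 UMIs of S100a8 and 0 of Kit, Fgd5, Procr and Elane, and it lay beyond 99.1% of the Lin-kit+ neutrophil-like cells on the neutrophil axis described below. Every other Fgd5+ cell had at most 4 member UMIs. How a cell of this kind came to be in the library was not tested. Of the 793 Fgd5+ cells, 2 fell in neutrophil-like clusters (0.252%, exact 95% interval 0.0306 to 0.908%), as did 0 of 519 HSC-Fgd5+ cells, where the floor of 3 counts allows a share of up to 0.578% and the exact 95% upper limit is 0.708%.

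Without the cell richest in member UMIs of each library, both reporter-positive libraries together held 10 UMIs of Ngp, 9 of Camp, 4 of Ltf, 2 of Fcnb, 1 of Chil3 and 0 of Lcn2 and Cd177. Camp was then at 1.42 CPM (exact Poisson interval 0.651 to 2.70), 6676-fold below the Lin-kit+ mean (3517 to 14599). Chil3, with its 1 UMI, was 6590-fold lower (1183 to 260294) and Fcnb, with 2 UMIs, 2092-fold lower (579 to 17278). Lcn2 was at least 1424-fold and Cd177 at least 89.8-fold lower, taking 3 counts over the pooled libraries as the floor. These residual values were below the background of the same genes in erythroid-like cells of the Lin-kit+ libraries given below.

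**Figure D1:**
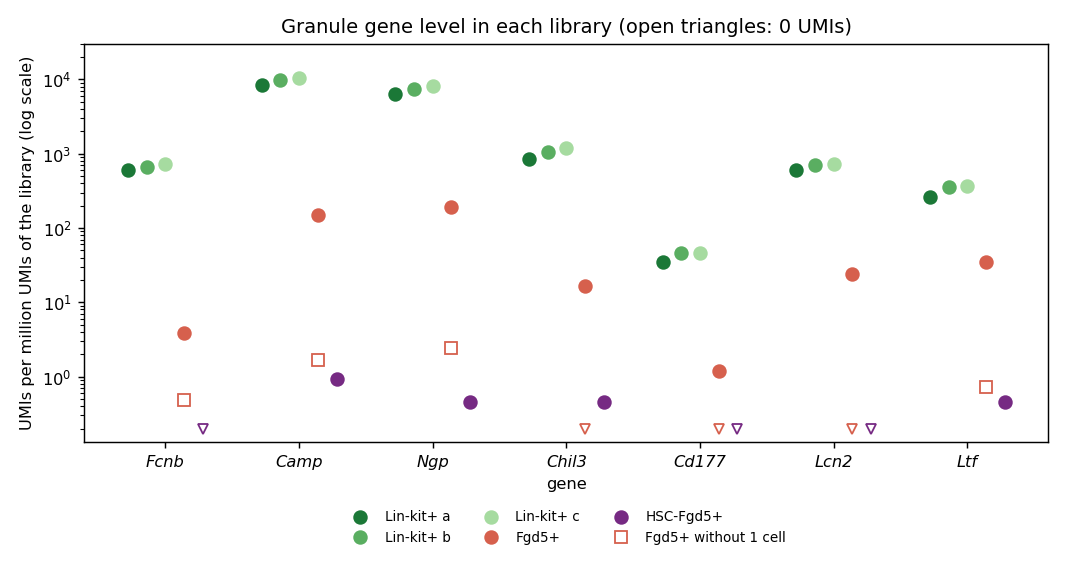
Level of each granule gene (CPM, log axis) in the 3 Lin-kit+ libraries (green), the Fgd5+ library (red) and the HSC-Fgd5+ library (purple). Filled circles are single libraries, open squares the Fgd5+ library without 1 cell and open triangles 0 UMIs. The Fgd5+ value of Camp drops from 151 to 1.68 CPM when that cell is left out, while the Lin-kit+ libraries lie between 8400 and 10297.

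The UMIs of each library were summed and compared in edgeR with its quasi-likelihood test, and p-values were adjusted over 11991 genes by the Benjamini-Hochberg method. All 7 members were lower in the reporter-positive libraries at an adjusted p under 0.05, where 30.4% of all genes tested were called in that direction, 32.7% were called higher and 63.1% were called in either direction. Without the cell richest in member UMIs of each library, all 7 were again lower. Of all genes, 63.2% were then called, 30.5% lower and 32.7% higher. For Lcn2 and Cd177, then at 0 in both libraries, no other direction was possible. No member exceeded 0.923 CPM in the HSC-Fgd5+ library, so all 7 passed the filter on low counts through the Lin-kit+ libraries. Their calls therefore add little to the levels given above. The members' median log2 fold change was -6.70, beside 0.07 for all genes. The log2 fold change was -4.52 for Ltf (SE 0.751, adjusted p = 0.00164), -7.41 for Camp (SE 1.28, adjusted p = 0.00195) and -8.59 for Fcnb (SE 0.436, adjusted p = 8.06e-06). The smaller fitted changes of Ltf and Camp rested on the single cell, without which they were -9.52 (SE 0.305) and -13.23 (SE 0.227, adjusted p = 3.59e-07), and that of Fcnb was -11.52. Between TMM scaling and scaling by library totals the median gene shifted from 0.07 to 0.60 on the log2 scale, and the share of called genes that were higher in reporter-positive libraries rose from 51.8% to 76.7%, while the 7 members stayed lower under both.

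Other genes of the neutrophil program were lower together with the members. Of the early and primary granule genes, 6 of 6 were called lower, among them Mpo, myeloperoxidase (4326 CPM as the Lin-kit+ mean against 32.3), and Elane, neutrophil elastase (8655 against 28.8). Reporter-positive CPM in this paragraph leave out the cell richest in member UMIs of each library. Ctsc, cathepsin C, which activates the serine proteases, changed least, at 94.4 against 77.0 CPM. Of the late genes 10 of 10 were called lower, and 13 of 13 other secondary and tertiary granule genes that passed the filter on low counts were lower, 4 of which are also among the late genes. Retnlg of the late genes and Fpr2 of the granule genes had 0 UMIs in both reporter-positive libraries and were tested only through the Lin-kit+ libraries, so that no other direction was possible for them. The 13 granule genes ran from Cd63 (638 against 585 CPM), a membrane protein of granules and lysosomes, to Hp, haptoglobin (615 against 1.31 CPM). Under TMM the log2 fold changes of Cd63 and Ctsc were -0.67 and -0.83, larger than the differences between their CPM. These changes rest in part on the scaling, and their calls under library totals are not given here. The regulators did not follow as a group. Of 10 tested, 7 were lower, among them Cebpe (269 against 1.44 CPM), which drives secondary granule genes, and Gfi1, a repressor needed for granulocytes (log2 fold change -2.93). Spi1, Runx1 and Klf5 did not pass the test, and Myb, called lower at a log2 fold change of -0.44, was at 0.09 and not called when scaled by library totals. Spi1 was at 128, 42.2 and 23.7 CPM in libraries a, b and c, a wider spread than that of any member. Of 7 relatives of the members that were tested, 6 were lower, such as Orm1. Its log2 fold change was -7.39 with all cells. Without the cells richest in member UMIs it was -11.19, with 0 UMIs of Orm1 left in both reporter-positive libraries. Ptgds, a prostaglandin synthase of the lipocalin family, was higher (1.21). Of those lower, Chit1 and BC100530 were also at 0 in both reporter-positive libraries, with no other direction possible.

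Within the Lin-kit+ libraries, between 94.2% (Chil3) and 96.4% (Ltf) of the UMIs of each member lay in neutrophil-like cells. Camp reached 26809 ± 1444 CPM there (SD, n = 3), Ngp 20651 ± 1741, Chil3 2862 ± 383, Lcn2 1888 ± 104, Fcnb 1839 ± 119, Ltf 918 ± 113 and Cd177 118 ± 12.1. Erythroid-like cells, which should lack these genes, were at 115 ± 17.5 CPM for Camp and 60.3 ± 17.4 for Ngp. For Ltf, Cd177 and Lcn2 they were at 3.36 ± 2.11, 0.953 ± 0.644 and 5.89 ± 2.45 CPM. The median over the members of the ratio between both classes was 273.

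**Figure D2:**
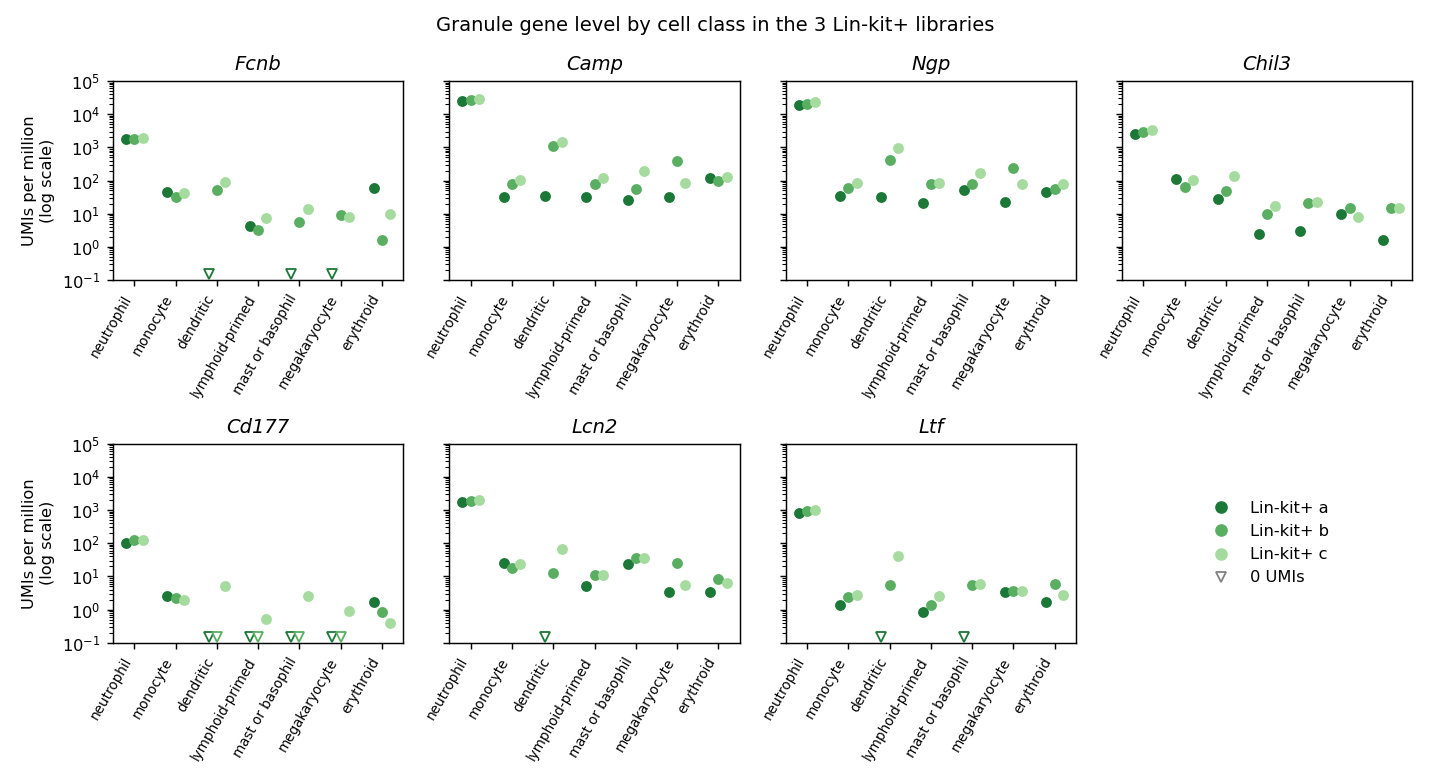
Level of each granule gene (CPM, log axis) in 7 classes of Lin-kit+ cells, with 1 point per library (a dark, b middle, c light green) and open triangles for 0 UMIs. Cells of the unnamed clusters are not shown. In each panel the neutrophil-like cells stand highest, as for Camp with 26809 CPM against 115 in erythroid-like cells, and the low levels of Camp and Ngp are lowest in library a in most other classes.

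Outside the neutrophil-like cells, a small number of cells with 20 or more member UMIs carried much of the signal. Among 535 dendritic-like cells, 6 held 91.8% of the member UMIs, and all 6 were called doublets. Among 2662 monocyte-like cells 26 such cells held 27.0% of the UMIs, of which 4 were called doublets. An erythroid-like doublet of this kind in library a set the Fcnb value of its class, which was 57.9 CPM with it and 0 without.

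With such cells left out, the classes differed in which members remained. Camp was at 75.3 ± 34.1 CPM in erythroid-like, 62.9 ± 27.5 in monocyte-like and 67.0 ± 31.4 in lymphoid-primed multipotent-like cells, and in all of these it was lowest in library a, at 35.9, 31.2 and 31.4 CPM. Its low level thus varied more between libraries than between these classes. Chil3 was at 40.7 ± 12.6 CPM in monocyte-like cells against 10.3 ± 7.41 in erythroid-like cells, and the 3 libraries did not overlap between these classes (26.2, 46.8 and 49.1 against 1.71, 14.7 and 14.4). Fcnb likewise was at 24.5, 28.9 and 31.0 CPM in monocyte-like cells against 0, 1.64 and 6.98 in erythroid-like cells. With all cells kept, the Fcnb levels overlapped, at 46.3, 31.3 and 41.2 CPM against 57.9, 1.64 and 9.68. The share of all genes without overlap between these classes was not computed, so the separation cannot be called particular to these members. Lcn2 was at 18.5, 16.6 and 20.3 CPM in monocyte-like, and at 23.8, 36.9 and 33.9 in mast or basophil-like cells, against 3.42, 8.18 and 6.21 in erythroid-like cells.

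Levels were also set against Ngp in the same cells. Per 100 Ngp UMIs, Camp had 144 ± 26.7 in erythroid-like and 113 ± 22.0 in monocyte-like cells, and the libraries overlapped. Fcnb had 4.10 ± 4.76 in erythroid-like cells and 55.3 ± 14.4 in monocyte-like cells, and Chil3 17.4 ± 10.4 and 76.0 ± 5.64, without overlap between the libraries of both classes. With all cells kept, Fcnb had 125, 2.99 and 12.1 against 136, 54.0 and 50.7 in libraries a, b and c, which overlap. Those of Chil3 remained apart. The separation of Fcnb thus rests on leaving cells out by their own member UMIs. For these ratios, too, the share of all genes without overlap was not computed. Lcn2 had 11.9 ± 3.36 in erythroid-like, 37.2 ± 14.5 in monocyte-like and 43.4 ± 4.98 in mast or basophil-like cells, of which the last 2 classes overlapped. Whether the UMIs in erythroid-like cells came from free RNA was not tested, and no test was made between clusters. The median cell held 6318 UMIs in the monocyte-like, 3433 in the mast or basophil-like and 3306 in the erythroid-like class.

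The order in which the members rose was read along an axis of the neutrophil-like cells, which used neither the clusters' order nor any member. A cell's position was the mean log level of 10 late genes (S100a8, S100a9 and others) minus that of 6 early and primary granule genes, and the 3856 cells were divided into 20 bins of equal size. Levels are UMIs per 10000 UMIs of a cell. The members together rose from 0.0200% ± 0.00324 of a cell's UMIs in the first bin to 18.0% ± 0.488 in the last (SD, n = 3). The median cell of a bin held fewer UMIs at the end than at the start, 5153 against 7871 in library a, 3829 against 5839 in library b and 4710 against 6777 in library c.

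The members did not rise together. The midpoint, where a member first reached 50% of its own highest bin, lay for Fcnb at 43.9%, 40.2% and 38.1% of the cells in libraries a, b and c. Camp followed at 56.7%, 56.3% and 54.5%, and Ngp at 70.7%, 71.3% and 69.7%. Fcnb thus reached its midpoint before Camp by 15.1 ± 1.99 percentage points, and Camp before Ngp by 14.7 ± 0.631. Chil3 lay at 74.7%, 77.7% and 75.3%, and Cd177 at 81.4%, 77.4% and 75.8%. Lcn2 lay at 82.4%, 84.5% and 83.2%, and Ltf at 86.9%, 88.6% and 87.9%. From Fcnb to Ltf the midpoints covered 47.0 ± 3.61 percentage points. For Ngp, Chil3, Cd177, Lcn2 and Ltf the highest bin was the last, so a higher level beyond the axis was not seen. Their midpoints, and this distance, therefore depend on where the axis and its last bin end. The mean midpoint of Ltf was 85.7% with 10 bins and 89.0% with 40 bins. Each neighbour in the order Fcnb, Camp, Ngp, Chil3, Lcn2, Ltf followed the one before it in 3 of 3 libraries, and Cd177 was placed between Ngp and Lcn2. Chil3 and Cd177 could not be ordered, since Cd177 came later by 6.76 and 0.455 points in libraries a and c and earlier in library b. An exact test over 3 libraries cannot reach p = 0.05, so the order is given as counts of libraries.

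**Figure D3:**
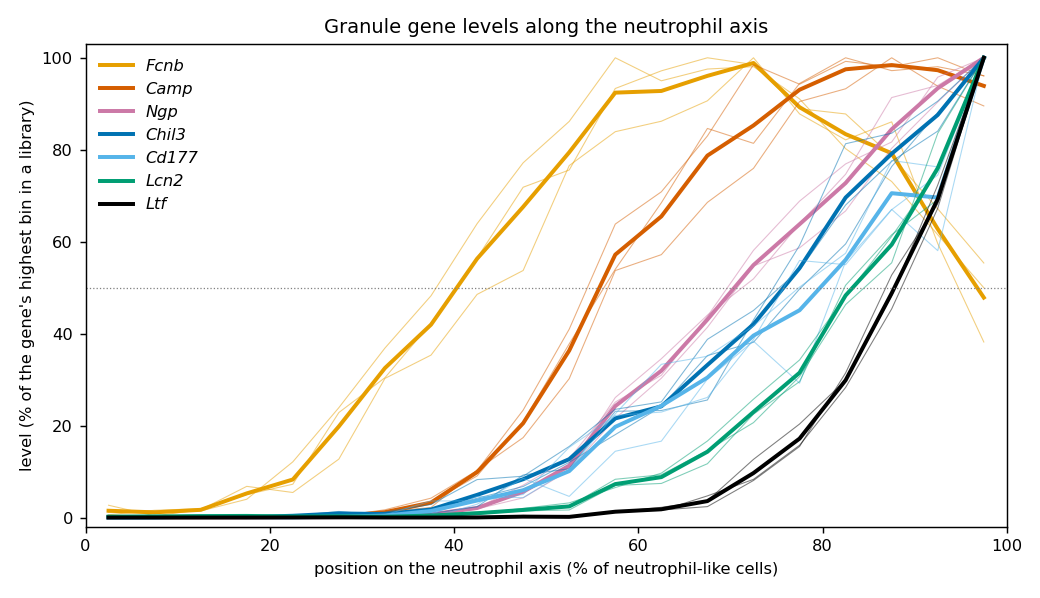
Level of each granule gene along the neutrophil axis, as a percentage of its highest bin in a library, against the position in percent of neutrophil-like cells. Thick lines are means of 3 libraries, thin lines single libraries, and the dotted line marks 50%. Fcnb crosses it first, near 40.7% of the cells, and declines at the end, while Ltf crosses it last, at 87.8%.

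The first rise was spread out in the same way. A level of 10% of the highest bin was reached by Fcnb at 23.4% ± 2.22 of the cells, Camp at 42.5% ± 0.350, Chil3 at 49.7% ± 1.24, Ngp at 51.4% ± 1.16, Cd177 at 52.4% ± 2.67, Lcn2 at 63.8% ± 1.49 and Ltf at 72.8% ± 1.56. By this measure Chil3 came before Ngp in 3 of 3 libraries, by 1.67 ± 0.444 points, although its midpoint came after that of Ngp by 5.32 ± 1.25 points in 3 of 3. Ngp therefore went from 10% to 50% of its highest bin over a shorter stretch of this axis than Chil3. For both genes that bin was the last, so their full rise was not seen. Cd177 and Ngp could not be ordered by their first rise, with 2 of 3 libraries in the order given.

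**Figure D4:**
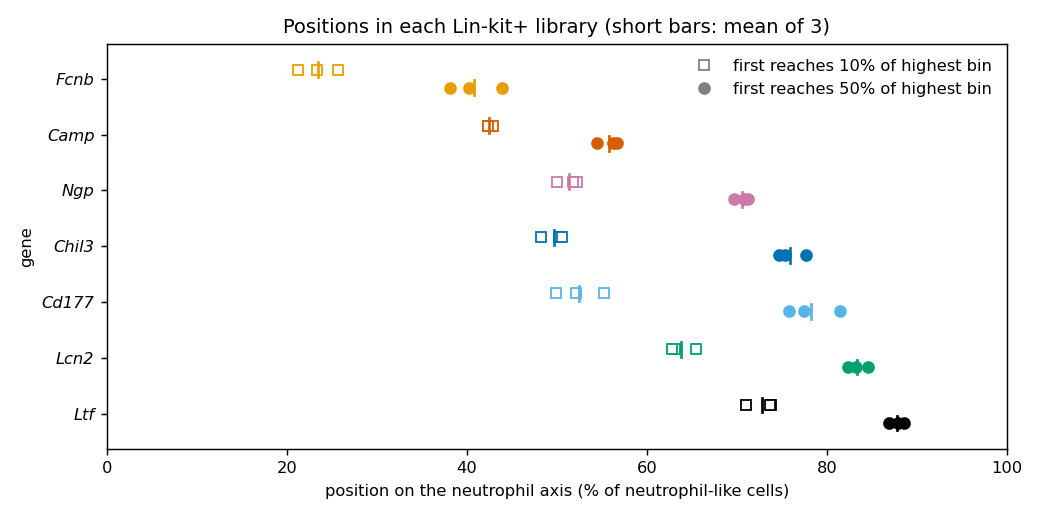
Position on the neutrophil axis (percent of neutrophil-like cells) at which each granule gene first reached 10% (open squares) and 50% (filled circles) of its highest bin, with 1 point per Lin-kit+ library and short bars for the mean of 3. The circles of Fcnb, Camp and Ngp do not overlap with each other, and those of Chil3 (74.7 to 77.7) and Cd177 (75.8 to 81.4) do.

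Fcnb was the only member that fell clearly before the end of the axis. It was highest at 65.8% of the cells, with 37.3 ± 1.80 UMIs per 10000, and was down to 17.8 ± 2.73 in the last bin, which was 38.2%, 55.4% and 49.98% of its highest bin in libraries a, b and c. Camp was highest at 87.5% of the cells and kept 93.9% ± 3.78 of that level in the last bin. Ngp, Chil3, Cd177, Lcn2 and Ltf were highest in the last bin in 3 of 3 libraries. In that bin Ngp (806 ± 44.2 UMIs per 10000) was above Camp (661 ± 4.82) in each library, whereas over all neutrophil-like cells Camp was the higher. Chil3 (117 ± 12.5) and Lcn2 (116 ± 3.98) did not differ beyond their spread there, Ltf stood at 77.8 ± 2.03 and Cd177 at 5.30 ± 0.284.

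The neutrophil-like clusters showed the same succession. Cluster 5, with Mpo, Elane and Ctsg among its markers, had Fcnb at 172, 171 and 167 CPM in libraries a, b and c, above its Camp (85.4 ± 37.6), its Ngp (47.5, 60.7 and 82.6) and its Ltf (0.880, 1.72 and 2.68). In cluster 2, in the middle of the axis, Camp was at 15029, 14462 and 13425 CPM and Fcnb at 2092, 2172 and 2275, while Ltf was still at 20.1, 35.1 and 30.3. The late clusters 7 and 9 had Ltf at 2530 ± 482 and 2483 ± 193 CPM and Camp at 59871 ± 2103 and 64385 ± 1332. Ltf was thus higher by nearly 2 orders of magnitude between the middle and the late clusters, and Fcnb by less than 2-fold. Lcn2 was at 31.4 ± 1.34 CPM in cluster 5, where the 3 libraries (29.9, 31.9 and 32.5) lay above those of erythroid-like cells. They lay within the range of mast or basophil-like cells without cells of 20 or more member UMIs (23.8, 36.9 and 33.9). This level was therefore not particular to the neutrophil series.

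Genes of the granule program that defined neither the axis nor the members served for comparison. Lyz2, lysozyme, had its midpoint at 71.8% ± 2.05, near Ngp, and Itgb2, Ceacam1 and Itgam, surface proteins stored in granule membranes, at 50.6% ± 4.51, 49.9% ± 1.10 and 46.2% ± 1.99. Cyba, a subunit of the NADPH oxidase, was there by 32.9% ± 3.33. Other genes of the same list fell along the axis, such as Cd63, which was highest between 37.5% and 57.5% of the cells and was at 40.4% ± 4.77 of its highest bin in the last, and Slpi, a protease inhibitor, which was highest between 2.5% and 32.5% and was at 75.9%, 36.0% and 56.1% of its highest bin in the last bin of libraries a, b and c. Cebpe reached its midpoint at 30.0% ± 3.39, before any member, and was highest at 75.8%, with 11.3 ± 0.495 UMIs per 10000. Gfi1 was highest earlier, at 25.8%, and at 0.492 ± 0.153 UMIs per 10000 it was too sparse for a midpoint to be given. Kit, which encodes the surface protein used in the sort, was at 0.550 ± 0.214 UMIs per 10000 in its highest bin, at 19.2% of the cells, and at 0.0635 ± 0.0764 in the last bin. Chil1, a relative of Chil3 encoding another chitinase-like lectin, had its midpoint at 75.1% ± 1.76, beside the 75.9% ± 1.57 of Chil3. Chil4, the closest relative of Chil3, had 32 UMIs in the Lin-kit+ libraries against 71898 of Chil3. Over the last 500 bases of their transcripts these genes were 92.2% identical, so that some reads may have been given to the wrong gene or to neither.

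Late neutrophil-like cells differed more in some members than in others. Among the 768 cells of the last 4 bins, the level of Camp differed 1.71-fold and that of Ngp 1.92-fold between the 10th and 90th percentile, from 497 to 851 and from 490 to 941 UMIs per 10000. For Chil3, Lcn2 and Fcnb the span was 3.47-fold, 3.55-fold and 3.81-fold, and for Ltf it was 9.48-fold, from 9.90 to 93.9. Within these 4 bins the mean level of Ltf itself rose from 23.9, 22.7 and 23.1 in the first to 76.1, 80.1 and 77.4 UMIs per 10000 in the last bin of libraries a, b and c, while Camp went from 685, 686 and 689 to 657, 659 and 666. The span of Ltf thus holds its rise along the axis as well as counting error, which is larger for the sparser genes, and the part of counting error was not tested. A UMI of Camp and Ngp was found in all of these cells, and 1.17% had none of Ltf and 25.8% none of Cd177.

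Detection in single cells was compared after thinning each cell to 1500 UMIs, which left out 26 of the 3856 neutrophil-like cells. Fcnb had a UMI in 72.7% ± 0.932 of these cells, Camp in 66.5% ± 1.28, Ngp in 62.6% ± 0.643, Chil3 in 54.2% ± 2.66, Lcn2 in 45.1% ± 1.296, Ltf in 27.5% ± 1.54 and Cd177 in 13.3% ± 3.11. Without thinning the shares were 82.4% for Fcnb and 77.1% for Camp, against 1.57% and 27.4% in erythroid-like cells, with median depths of 5437 and 3306 UMIs per cell. In erythroid-like cells at the same depth, 12.8% ± 4.11 had a UMI of Camp and 7.02% ± 4.09 of Ngp, against at most 1.72% for each of the others. With at least 3 UMIs required, these background shares were 0.406% for Camp and 0.0692% for Ngp, and the shares of neutrophil-like cells were 59.6% ± 0.675 and 54.6% ± 0.495.

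At 3 or more UMIs the members were nearly nested. All 716 cells with Ltf also had Camp and Ngp, and 97.3% ± 1.16 of them had Lcn2. In the other direction, 30.3% ± 2.79 of the cells with Camp and 58.1% ± 1.44 of those with Lcn2 had Ltf. Cd177, which reached 3 UMIs in 0.756% of the neutrophil-like cells, was found at that level in 3.69% ± 0.843 of the cells with Ltf. Of the 2098 cells with Ngp, 98.2% ± 0.483 had Camp, and of the 2274 with Camp 89.96% ± 1.07 had Ngp. Of the 1181 cells with Lcn2, 1178 had Camp. Fcnb broke the nesting at the early end, since 90.5% ± 1.39 of cells with Fcnb had Camp. With 1 UMI required for each gene this share was 84.76% ± 0.152. At the late end, 66.5% ± 3.83 of cells with Ltf had Fcnb at 3 or more UMIs. With 1 UMI required for each gene, 94.99% ± 1.75 of cells with Ltf had Fcnb. The late break thus rests on the cut of 3 UMIs and does not show that these cells had lost Fcnb.

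Counting members per cell gave the same picture. Among the 259 cells in which 1 member was detected at this level, it was Fcnb in 62.2% and Camp in 31.7%. With 3 members detected (426 cells), 98.8% had Camp, 96.5% Ngp and 82.4% Fcnb, and 0.235% had Ltf. With 5 (588 cells), 96.8% had Lcn2 and 40.5% Ltf. No member at all was detected in 35.0%, 35.8% and 34.5% of the neutrophil-like cells of libraries a, b and c.

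**Figure D5:**
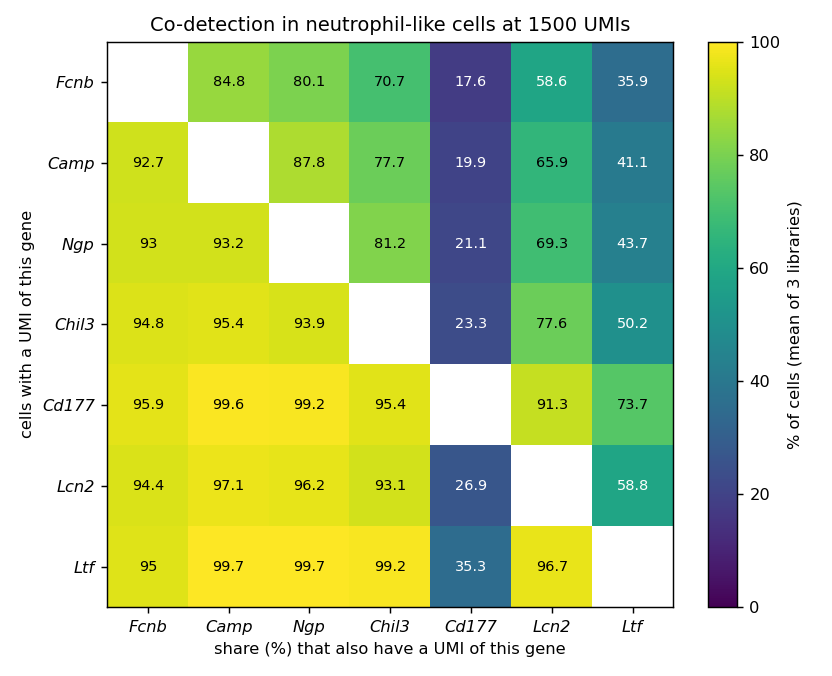
Share of neutrophil-like cells with a UMI of the gene in a row that also had a UMI of the gene in a column, in percent, as the mean of 3 Lin-kit+ libraries after thinning to 1500 UMIs. Of cells with Ltf 99.7% had Camp, and of cells with Camp 41.1% had Ltf.

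The genes most like each member were sought over the 20 clusters of Lin-kit+ cells among 10148 genes with at least 100 UMIs, the members themselves left out of the ranking, by Pearson's r of log2(CPM + 1), as a description, since the clusters share libraries and differ in depth. Outside the members, Camp was closest to S100a8 (0.914) and S100a9 (0.913), which encode the subunits of calprotectin, and to Tnfsf13b (0.910), which encodes the B cell factor BAFF. Ngp was closest to Tnfsf13b (0.916), S100a9 (0.912) and Orm1 (0.912), an acute phase glycoprotein. Cd177 had the highest value of these, 0.983 with Orm1, followed by Tnfsf13b and Stk39 (both 0.970). Lcn2 was closest to Ceacam1 (0.935), Itgb2l (0.921) and Pilrb2 (0.921). Chil3 was closest to Abhd5 (0.948), which activates triglyceride lipase, Pilra (0.911) and Gca (0.910), which encodes grancalcin. Fcnb was closest to Clec4a2 (0.964), Gca (0.959) and Wfdc21 (0.951). Ltf had lower values, to Stfa1 (0.894), Inhba (0.881), an activin subunit, and Itgb2l (0.878). All clusters counted equally, although clusters 18, 3 and 20 held only 1, 22 and 26 Lin-kit+ cells. In the HSC-like cells of library b, 1 UMI of Ltf made 66.8 CPM. How far the values of Ltf rest on such small clusters was not tested. Among the members, Camp and Ngp were the most alike (0.980), and Ltf and Camp the least (0.615). For Camp and Ngp their value with each other, for Ngp also that with Cd177 (0.919), and for Lcn2 that with Chil3 (0.943) were above that gene's values with any gene outside the members.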

How the data were processed

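UMI counts of 12893 cells and 15287 genes were analysed as deposited, without normalization. The authors combined consecutive sequencing runs of Chromium Single Cell 3' V2 libraries and processed them with Cell Ranger. The submitters' processing notes name Cell Ranger 1.3 and 2.1, Seurat 2.3.4 and mm10. The members and all gene lists were chosen with earlier results of these data known.

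Cells were normalized to the median UMI total and log-transformed. The 2000 most variable genes, without the members and Fgd5, were reduced to 20 principal components, and Leiden clusters (resolution 1) were made on a graph of the 15 nearest neighbours (scanpy 1.11.5, leidenalg 0.10.2, Python 3.11.15). A cluster was named when at least 3 markers of a list were 2-fold higher, after adding 10 CPM, and detected in 5% of its cells, thresholds set after the clusters had been seen. Under this rule 2 clusters stayed unnamed, of 787 cells (led by Slpi and Mpo) and 97 cells (led by Prg2). Doublets were called with Scrublet per library and kept.

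Sums of counts per library were compared in edgeR 4.0.16 (R 4.3.3, TMM, its filter on low counts, quasi-likelihood test, Benjamini-Hochberg adjustment), with 3 Lin-kit+ against 2 reporter-positive libraries. The reporter-positive libraries were sorted with different gates, so the spread between them holds the gate as well as the library. The SE is the log2 fold change divided by the square root of the F statistic. Tested on simulated data for this comparison over 11991 genes, the test called 84.3% of 4-fold and 55.0% of 2-fold changes, and 0.0452% of unchanged genes. The simulation held 300 changes of each fold, equally up and down, beside 35373 unchanged genes. In the data 63.1% of genes were called, so these rates need not hold there. DESeq2 1.42.0, library totals, other bins, depths, clusterings and each library left out were alternatives. Intervals are exact at 95% and cover counting error only. Named genes were the members, for each the 3 genes most alike over clusters, the extremes of the fixed lists, and Elane, Mpo, S100a8, S100a9, Cebpe and Gfi1. Further genes named from the lists, and Kit, Fgd5 and Procr, were added after their values were seen. The study's other assays were not analysed here.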

Additional observations from a re-analysis of the deposited data

How the results depend on the processing

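All 7 members stayed lower in reporter-positive libraries at an adjusted p under 0.05 (edgeR, or DESeq2 in its own run) under the alternatives of test, scaling, filter, doublets, single cells and each library left out. With 1 reporter-positive library left out, the spread came from the Lin-kit+ libraries alone, and the lone library was assumed to vary like them. Over these the log2 fold change of Camp ran from -13.87 to -6.52, and that of Ltf from -10.00 to -3.76. The count of genes called, 7567, ran from 5964 to 7668 with a library left out and was 8574 with library totals. On the neutrophil axis, the distance from Fcnb to Ltf, 47.0 points, ran from 46.3 to 49.1 with a library left out, and was 39.3 points with the unnamed Mpo cluster added, an alternative chosen after seeing the data that places more cells at the start of the axis. The order of the members changed in 3 alternatives, each time between Chil3 and a neighbour: with Cd177 when UMIs per cell were used or library a was left out, and with Ngp at 10% of the highest bin. Library a had 6 bins with fewer than 20 cells. The median ratio between neutrophil-like and erythroid-like cells, 273, stayed between 242 and 358, but single genes moved more. That of Fcnb, 79.7, was 867 without doublets, 640 without cells of other classes with 20 or more member UMIs (chosen after seeing the data) and 331 without library a. That of Cd177 went from 124 to 207 without library a, and that of Ltf from 273 to 414 without library b. The share of cells with Camp that had Ltf, 41.1% at 1500 UMIs, was 38.4% at 1000 UMIs, 43.1% at 3000 UMIs, 44.4% without thinning and 30.3% when 3 UMIs were required, since detection depends on depth by construction. Of 322 values under alternatives, 48 values of single genes and 5 of the main values, given above, moved by more than 1 SD. The order on the axis was scored by the distance from Fcnb to Ltf, so a changed order did not count as moved. Of the members' fold changes 0 were reversed. With members this close to 0 in the reporter-positive libraries, a reversal was hardly possible, so this adds little. Fold changes were judged by direction and threshold only, since their size moved widely. No paired analysis was possible because the libraries of the table carry no replicate number. Values for Cd177, with 2892 UMIs in the Lin-kit+ libraries, are the least precise.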
